A study of Mus musculus with 4 samples.

Results

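The genes described here code for the proteins of the cytosolic ribosome. They were chosen by symbol: Rpl or Rps followed by digits and a short letter ending, plus Rplp0, Rplp1, Rplp2 and Rpsa, with pseudogene symbols containing -ps and the Rps6k kinases left out. The rule found 82 of the 19840 genes of the deposited table. Of these, 43 code for proteins of the large subunit, 3 for the P stalk and 30 for the small subunit, and these 76 are called the core genes below. The other 6 are Rpl3l, Rpl10l, Rpl36al, Rpl39l, Rps27l and Rpl6l, copies of a core gene under a symbol of their own. The annotation lists Rpl6l as a processed pseudogene and the other 81 as protein coding.

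The RNA came from mouse embryonic stem cells in the naive state, held there by 2i/LIF medium, and 1 table of gene-level statistics was deposited. A plko.1 lentivirus delivered either a control hairpin (shCtrl) or one that targets Lncenc1, a long noncoding RNA (shLincenc1), and puromycin selection lasted 2 days. Each group had 2 libraries. The protocols name 2 cell lines, E14TG2a and R1, and 2 hairpins designed per gene, and no label ties a library to a line or to a hairpin. Nothing in the labels says that the libraries of a group were separate cultures, so the p-values measure only the spread of these libraries, which may be technical.

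The table does not state the numerator of its fold change. Groups are therefore named by their Lncenc1 level: the Lncenc1-high group is the numerator (libraries H1 and H2) and the Lncenc1-low group is the denominator (L1 and L2). Read counts of each library were recovered from the deposited means, and a normalized read count is a recovered count divided by the library's size factor. Lncenc1 had 6400 normalized reads in H1, 7250 in H2, 2126 in L1 and 2121 in L2. Its log2 fold change in the authors' deposited table was 1.68 ± 0.19 (SE), with a DESeq2 adjusted p of 2.7e-16. A hairpin that worked would make shLincenc1 the Lncenc1-low group, but since the groups were named by this level, it is no check of the knockdown. H1 held 28048850 recovered reads, and the other 3 libraries held 11157990 to 11905029. The 11 pluripotent stem cell markers, among them Pou5f1, Sox2 and Nanog, summed to 92385 and 85519 normalized reads in H1 and H2. In L1 and L2 they summed to 75583 and 73556. Of 10 fibroblast markers 6 were in the table, and they summed to 229, 194, 392 and 308 normalized reads in H1, H2, L1 and L2, with Col3a1 at 0 in H2 and L2. The part of either marker list in the results below was not tested.

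The cytosolic ribosome is built from ribosomal RNAs and a fixed set of proteins, nearly all present once per particle. The small subunit reads the messenger RNA, the large subunit forms the peptide bond, and the P stalk of the large subunit recruits the elongation factors. In mammals most transcripts of these genes begin with a 5′ terminal oligopyrimidine tract (5′ TOP), a C followed by an unbroken run of C and T in the DNA, through which mTOR signalling adjusts their translation. Free ribosomal proteins are also known as signals, since Rpl5 and Rpl11 bind Mdm2 and so stabilise p53 when assembly fails.

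Library L2 stood apart for these genes. Their share of the recovered reads was 8.0% in H1 (Wilson 95% interval 7.99 to 8.01), 8.53% in H2 (8.51 to 8.54), 7.72% in L1 (7.70 to 7.73) and 6.20% in L2 (6.18 to 6.21). The group means were 8.26% ± 0.37 (SD, n = 2) for Lncenc1-high and 6.96% ± 1.08 (SD, n = 2) for Lncenc1-low. Both Lncenc1-high libraries were above both Lncenc1-low libraries, but L1 lay closer to H1 than to L2. No exact test of 2 against 2 libraries can go below a two-sided p of 0.333, and the intervals cover counting error only. In these bulk libraries fewer cells of a type and less RNA per cell cannot be told apart.

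The proportions between the subunits moved little. Reads in large subunit genes were 1.53 times those in small subunit genes in H1, 1.53 times in H2, 1.57 times in L1 and 1.57 times in L2. The P stalk genes took 0.361%, 0.375%, 0.356% and 0.258% of the reads in H1, H2, L1 and L2. The 6 copies took 0.0375%, 0.0339%, 0.0388% and 0.0363%. The low share of L2 was therefore seen in both subunits and in the stalk, and not in the sum of the copies. Taken singly, the 5 copies with an adjusted p all had fewer normalized reads in L2 than in L1. Their median log2 ratio was -0.20, and 6993 of the 14066 tested genes with counts had L2 below L1.

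**Figure D1:**
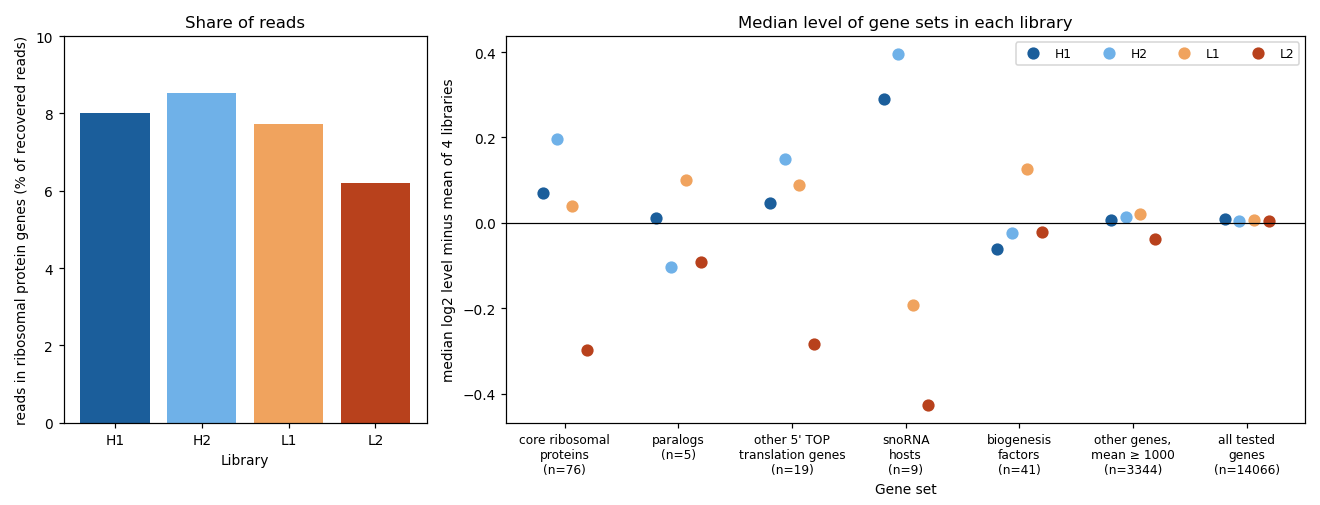
Left, reads in the 82 ribosomal protein genes as a percentage of the recovered reads of each library, without replicates per bar. Right, the median over each gene set of the log2 normalized read count (pseudocount 0.5) minus the gene's mean over the 4 libraries, 1 point per library: the core ribosomal protein genes sit at -0.30 in L2 and at 0.07, 0.20 and 0.04 in H1, H2 and L1.

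Of the 82 genes 81 had an adjusted p in the authors' deposited table. Rps16 alone was called at an adjusted p under 0.05 by the authors' DESeq2 Wald test, and it was higher in the Lncenc1-high group. Over all genes 1.53% were called in either direction and 0.505% were called higher in the Lncenc1-high group, so 1 call among 81 is near the background. An unadjusted p under 0.05 with a higher level in the Lncenc1-high group was found for 8 of the 81, against 3.54% of all tested genes, and none of the 81 had one in the other direction. The fold change was above 0 for 76 of the 81, against 49.4% of all tested genes. The median log2 fold change was 0.26 over the 81 genes and -0.0054 over all 14070 tested genes. By class the medians were 0.26 in the large subunit, 0.29 in the P stalk, 0.30 in the small subunit and -0.0046 in the 5 tested copies. The core genes were close to one another: the SD of their 76 log2 fold changes was 0.12, while the median standard error of a single gene was 0.20.

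Leaving out L2 lowered the median of the 81 log2 fold changes to 0.083, with 63 above 0 and 18 below. Without L1 it was 0.43, without H1 0.32 and without H2 0.19. Over all tested genes with counts the medians were 0.011 without L2, 0.0047 without L1, -0.022 without H1 and -0.018 without H2. No gene of the 81 was called in any of these 4 negative binomial Wald fits of the recovered counts, which called 56, 79, 195 and 49 of all genes without H1, H2, L1 and L2. With limma voom on all libraries, none of the 81 and 8 of all genes were called. The higher level in the Lncenc1-high group thus rested in large part on L2.

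**Figure D2:**
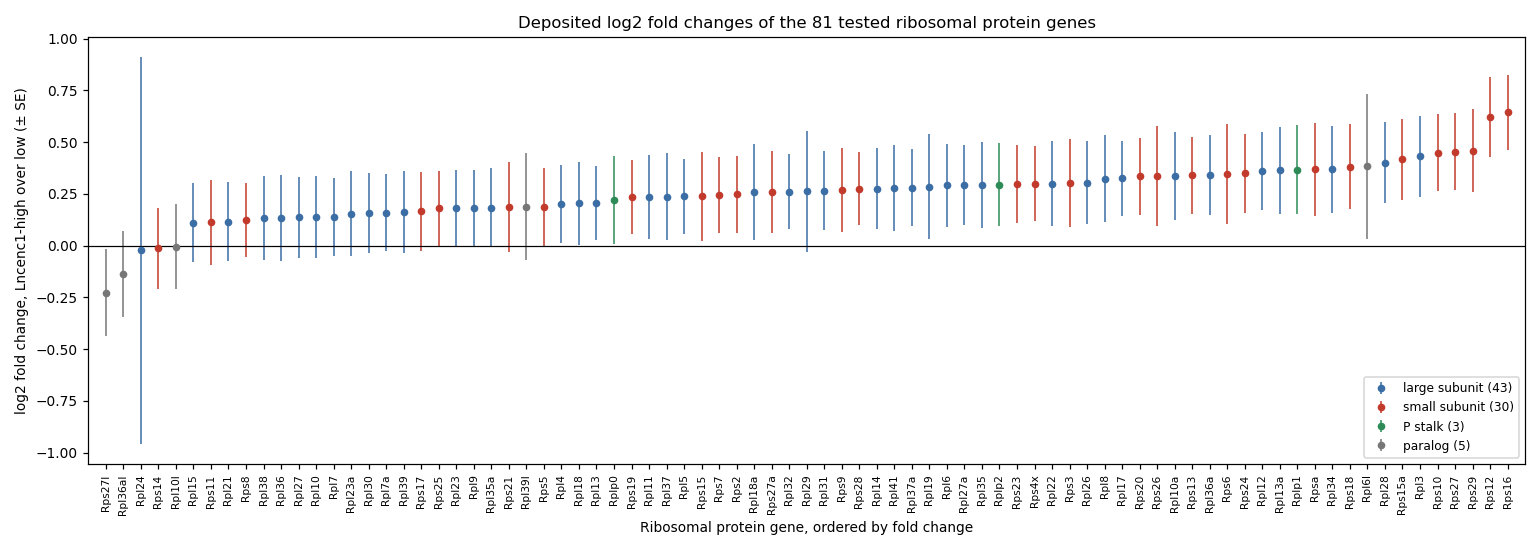
Deposited log2 fold change of each of the 81 tested genes, Lncenc1-high over Lncenc1-low, with bars of 1 standard error on either side, ordered from low to high and coloured by class. Most points lie between 0.1 and 0.4, and of the 5 points below 0 the copies Rps27l and Rpl36al are the lowest.

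Both Lncenc1-high libraries were above both Lncenc1-low libraries for 45 of the 81 genes, against 20.6% of all tested genes with counts and 24.1% of those averaging 1000 normalized reads or more. The reverse was found for 1 gene, Rps27l. L2 was the lowest of the 4 libraries for 75 of the 81, against 31.2% of all tested genes and 39.6% of those averaging 1000 reads or more. L1 was above at least 1 Lncenc1-high library for 35 of the 81 and above both for 10. Over all 14066 tested genes with counts these orders were found for 8674 and 5298. Both shares were smaller among the 81. Between the Lncenc1-low libraries the median log2 ratio of L2 over L1 was -0.32, with L2 below L1 for 78 genes. Between the Lncenc1-high libraries the median log2 ratio of H2 over H1 was 0.12, with H2 above H1 for 72 genes. Of the 14066 tested genes with counts, 6993 had L2 below L1 and 6968 had H2 above H1. Of the 3421 averaging 1000 normalized reads or more, 1999 and 1770 did. The difference between L2 and L1 was therefore larger than the median difference between the groups.

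**Figure D3:**
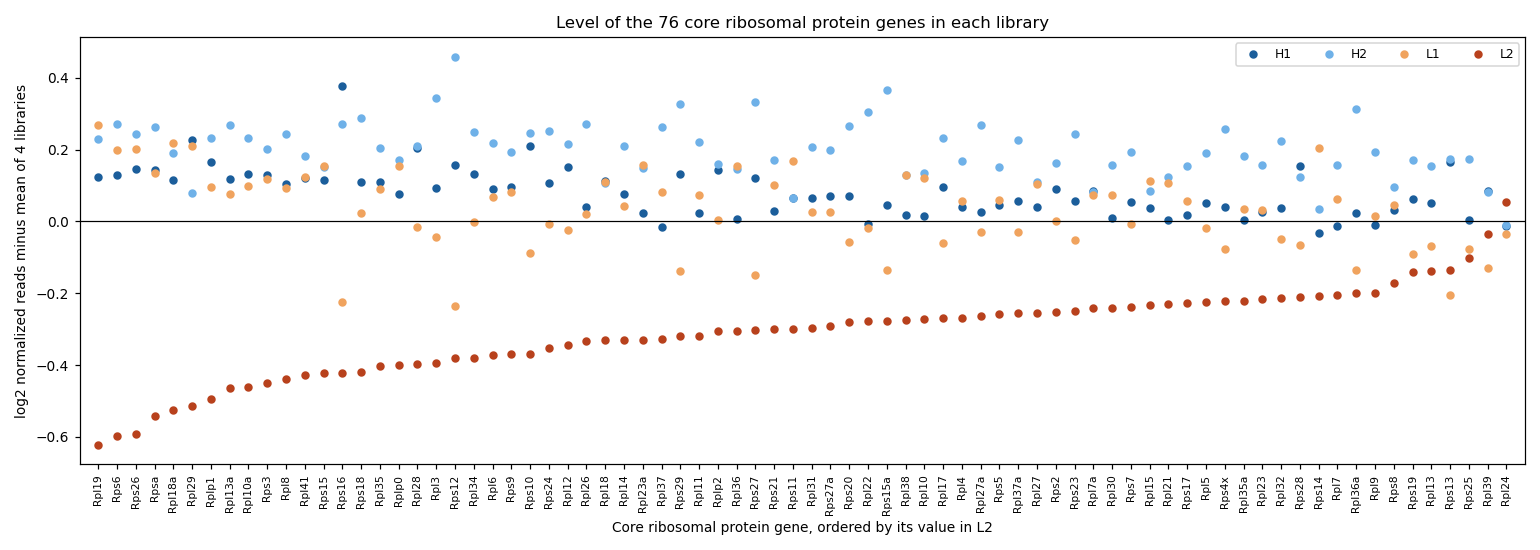
Log2 normalized read count (pseudocount 0.5) of each of the 76 core genes in the 4 libraries, minus the gene's mean over the 4, ordered by the value in L2. L2 is the lowest point for 73 of the 76 genes, while L1 falls among or just below the Lncenc1-high points for most.

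Among the small subunit genes, Rps16 codes for a protein that reaches the decoding region, where it touches the initiator tRNA. It had 13273 normalized reads in H1, 12332 in H2, 8745 in L1 and 7635 in L2. Both Lncenc1-low libraries were low, and L1 lay much nearer to L2 than to H2. The group means were 12802 ± 665 and 8190 ± 784 (SD, n = 2 each). In the authors' deposited table its log2 fold change was 0.64 ± 0.18 (SE), with a DESeq2 adjusted p of 0.032. The call was lost in each fit that left out 1 library, where its log2 fold change was 0.55 to 0.75 and its adjusted p 0.054 to 0.553, and with limma voom at an adjusted p of 0.211. 

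Rps12, a protein of the small subunit beak, had 9220 normalized reads in H1, 11368 in H2, 7027 in L1 and 6354 in L2. The groups did not overlap, and H2 stood highest. Its log2 fold change in the authors' deposited table was 0.62 ± 0.19 (SE), and its DESeq2 adjusted p of 0.066 missed the threshold. Rps27 and Rps29 are zinc-binding proteins of the small subunit. Rps27 had 10635, 12324, 8821 and 7928 normalized reads in H1, H2, L1 and L2, and Rps29 had 2479, 2835, 2054 and 1811. For both genes the 2 groups did not overlap and L2 was only slightly below L1. The authors' deposited table gave log2 fold changes of 0.45 ± 0.18 and 0.46 ± 0.20 (SE), with DESeq2 adjusted p of 0.305 and 0.397.

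Rps10, a head protein that is ubiquitinated when ribosomes collide, had 12884, 13190, 10474 and 8624 normalized reads in H1, H2, L1 and L2. Rps15a had 5795, 7243, 5119 and 4639. Neither gene overlapped between the groups, and H1 of Rps15a lay closer to L1 than to H2. In the authors' deposited table their log2 fold changes were 0.45 ± 0.19 and 0.42 ± 0.20 (SE), with DESeq2 adjusted p of 0.327 and 0.481. These 6 small subunit genes are named here for their small p in this comparison. Without L2 their log2 fold changes were 0.32 to 0.55, and the median of the small subunit class was 0.15.

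For some small subunit genes L2 alone was low. Rps6, the substrate of the S6 kinases, had 46787 normalized reads in H1, 51607 in H2, 49118 in L1 and 28298 in L2. L1 was between the Lncenc1-high libraries, and L2 had 57.6% of the reads of L1. Its log2 fold change of 0.35 ± 0.24 (SE; DESeq2 adjusted p = 0.810, the authors' deposited table) became 0.00 without L2. Rps26, which sits at the exit of the messenger RNA channel, had 20048, 21418, 20824 and 12022 normalized reads in H1, H2, L1 and L2. Rpsa, also known as the laminin receptor precursor, had 39542, 42999, 39337 and 24582. L2 was far below the other 3 libraries for both genes. Others had both Lncenc1-low libraries below both Lncenc1-high libraries. Rps19, a head protein mutated in Diamond-Blackfan anaemia, had 7183, 7748, 6457 and 6236 normalized reads in H1, H2, L1 and L2. Rps4x, an X-linked gene, had 24570, 28556, 22671 and 20497. Rps14 was the small subunit gene with a fold change below 0: it had 24056, 25195, 28357 and 21298 normalized reads in H1, H2, L1 and L2, with L1 highest and L2 lowest. Its log2 fold change in the authors' deposited table was -0.012 ± 0.196 (SE; DESeq2 adjusted p = 0.999).

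In the large subunit, Rpl3 lies beside the peptidyl transferase centre. It had 27733 normalized reads in H1, 32968 in H2, 25212 in L1 and 19785 in L2. Rpl28 had 9214, 9248, 7910 and 6068. The groups did not overlap for either gene, and L2 was the lowest library for both. In the authors' deposited table their log2 fold changes were 0.43 ± 0.20 and 0.40 ± 0.20 (SE), with unadjusted p of 0.0285 and 0.0406 and DESeq2 adjusted p of 0.452 and 0.529. Without L2 they were 0.27 and 0.22.

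The large subunit proteins with roles outside translation were not called. Rpl5 and Rpl11 form the 5S ribonucleoprotein that binds Mdm2. Rpl5 had 22261, 24480, 21207 and 18393 normalized reads in H1, H2, L1 and L2, and Rpl11 had 6891, 7903, 7129 and 5427. Rpl23, which also binds Mdm2, had 12538, 13747, 12597 and 10601. Rpl26, which is known to bind p53 messenger RNA, had 9842, 11560, 9718 and 7607. Rpl22, an RNA-binding protein that is dispensable for translation itself, had 3319, 4120, 3292 and 2750. For these 5 genes L2 was the lowest library, and the Lncenc1-low libraries overlapped the Lncenc1-high ones for Rpl11 and Rpl23. In the authors' deposited table their log2 fold changes were 0.24 for Rpl5, 0.24 for Rpl11, 0.18 for Rpl23, 0.30 for Rpl26 and 0.30 for Rpl22, with DESeq2 adjusted p of 0.777 to 0.970.

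Rpl19, a protein that bridges the subunits, had the largest fall from L1 to L2 among the core genes. It had 14242 normalized reads in H1, 15316 in H2, 15761 in L1 and 8497 in L2, which is 53.9% of L1. L1 was the highest library, and the fold change between the groups (0.28 ± 0.25, SE; DESeq2 adjusted p = 0.934, the authors' deposited table) turned to -0.09 without L2. Of the core genes 3 had L2 above L1: Rps13 with 2721 and 2851 normalized reads in L1 and L2, Rpl39 with 1633 and 1744, and Rpl24 with 19.7 and 21.0. Rpl24 and Rpl39 met the naming rule on other grounds, and Rps13 was singled out after its values were seen. Rps13 and Rpl39 still had both Lncenc1-low libraries below both Lncenc1-high libraries.

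The other core genes, not given one by one, kept to a narrow range. The 27 of the large subunit had log2 fold changes of 0.11 to 0.37 in the authors' deposited table, with DESeq2 adjusted p of 0.587 to 0.995, and L2 was the lowest library in all 27. Their normalized reads in L2 were 59.7% to 95.4% of those in L1, with a median of 79.2%. The 16 of the small subunit had log2 fold changes of 0.11 to 0.38 in the authors' deposited table, with DESeq2 adjusted p of 0.614 to 0.995, and L2 was the lowest in all 16. In L2 they had 67.1% to 98.4% of the normalized reads of L1, with a median of 80.3%. The Lncenc1-high libraries were both above the Lncenc1-low libraries for 13 of the 27 and for 10 of the 16. Among all tested genes averaging 1000 normalized reads or more, 24.1% had this order and 39.6% had L2 as the lowest library. Without L2 the fold change was above 0 for 20 of the 27 and 14 of the 16, and none of these 43 genes went beyond 0.23.

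**Figure D4:**
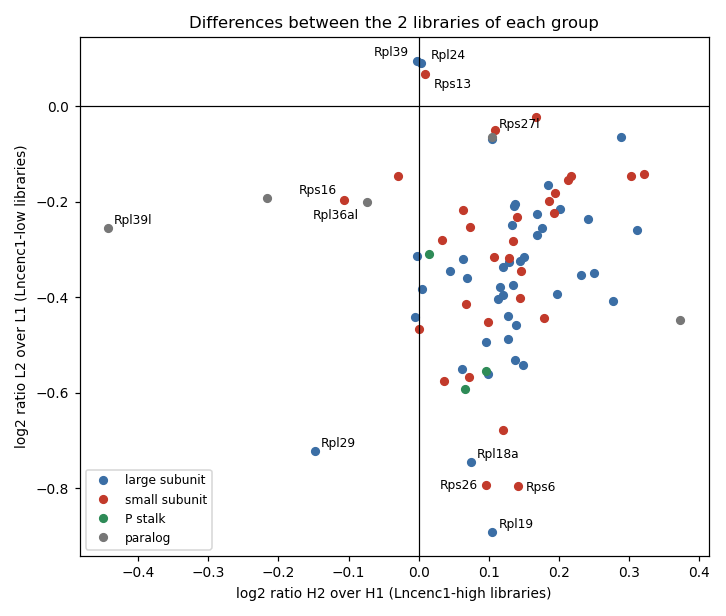
Each point is 1 of the 81 tested genes: the log2 ratio of its normalized reads between H2 and H1 (x axis) and between L2 and L1 (y axis), with a pseudocount of 0.5, coloured by class. Most points lie at the lower right, with L2 below L1 for 78 genes and H2 above H1 for 72.

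The P stalk is made of Rplp0, which anchors it to the ribosome, and of dimers of Rplp1 and Rplp2. Rplp0 had 27818 normalized reads in H1, 29734 in H2, 29380 in L1 and 20009 in L2. Rplp1 had 21362, 22355, 20362 and 13517, and Rplp2 had 2791, 2820, 2532 and 2043. In all 3 genes L2 was the lowest, and L1 was close to the Lncenc1-high libraries. Log2 fold changes of the authors' deposited table were 0.22 ± 0.21, 0.37 ± 0.22 and 0.29 ± 0.20 (SE), with DESeq2 adjusted p of 0.949, 0.701 and 0.795. Without L2 they were -0.03, 0.10 and 0.15.

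The annotated transcription starts of some of the named genes are shown because the 5′ TOP tract begins at the first transcribed base. Each window holds the 10 bases before the annotated RefSeq start (GRCm38.p6) and the first 20 transcribed bases, on the coding strand, and capitals mark a C at the start and the unbroken run of C and T that follows, where at least 4 more such bases follow. Most of the named core genes with a matched start are not shown and lack such a run. Among them are Rpl19, Rps26, Rpsa, Rps19, Rps4x, Rpl5, Rpl11, Rpl22, Rpl23, Rpl26 and Rplp0. Rplp2, also not shown, has one, and the share over all matched core genes is given below. Of the windows shown, the first 5 hold such a run and the last 3 do not.
Rps10: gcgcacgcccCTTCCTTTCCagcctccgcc
Rps15a: tttctgccatCTTCCCTCgccggtgagtga
Rps27: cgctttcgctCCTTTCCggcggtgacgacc
Rpl28: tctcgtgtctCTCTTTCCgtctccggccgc
Rps6: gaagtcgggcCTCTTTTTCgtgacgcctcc
Rps16: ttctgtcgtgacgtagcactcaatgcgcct
Rps12: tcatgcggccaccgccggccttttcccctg
Rps27l: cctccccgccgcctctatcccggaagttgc
They lie at chr17:27635225-27635254 (minus strand) for Rps10, chr7:118116128-118116157 (minus) for Rps15a, chr3:90213629-90213658 (minus) for Rps27, chr7:4792955-4792984 (plus) for Rpl28, chr4:86857348-86857377 (minus) for Rps6, chr7:28350679-28350708 (plus) for Rps16, chr10:23787190-23787219 (minus) for Rps12 and chr9:66946076-66946105 (plus) for Rps27l, whose other annotated start also lacks the run. Each window holds promoter sequence up to the start and the first bases of the 5′ untranslated region after it.

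RefSeq starts were matched for 61 of the 82 genes and for 56 of the 76 core genes. A run as defined above began at the start of 13 of these 56 core genes (23.2%), against 3.09% of the tested genes matched and 2.51% of all promoters. An annotated start can lie some bases away from the one a cell uses, and a missing run says only that the letters are not at this position. The 13 genes with the run had a median log2 fold change of 0.29 and the 43 without it 0.27. Their median log2 ratios of L2 over L1 were -0.37 and -0.32. Motifs were searched on both strands of the 300 bases from 250 before to 50 after each start, a gene counting once if any of its starts had a match, and matches of different motifs could overlap. The ETS core CCGGAAG was found in 41.1% of the 56 core genes, in 19.7% of the tested genes and in 8.86% of all promoters. The YY1 core ATGGCGG was found in 16.1%, 9.20% and 4.05% of these, the SP1 box GGGCGG in 60.7%, 68.2% and 35.7%, and the TATA box TATAAA in 10.7%, 8.75% and 13.6%. These matches describe the letters of the windows, and no binding was measured.

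The copies with a symbol of their own had fold changes on both sides of 0. Rps27l, a p53-inducible relative of Rps27 with 76.2% identical coding bases, had 1002 normalized reads in H1, 1076 in H2, 1242 in L1 and 1188 in L2. Both Lncenc1-low libraries were above both Lncenc1-high libraries, the reverse of Rps27. Its log2 fold change in the authors' deposited table was -0.23 ± 0.21 (SE; DESeq2 adjusted p = 0.946), against 0.45 for Rps27, and the difference between them was not tested. Rpl36al, a relative of Rpl36a with 87.7% identical coding bases, had 1326, 1260, 1521 and 1324 normalized reads, while Rpl36a had 4348, 5310, 3895 and 3726. In the authors' deposited table the log2 fold changes were -0.14 ± 0.21 and 0.34 ± 0.19 (SE), with DESeq2 adjusted p of 0.991 and 0.673.

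Rpl10l, a retrogene known for its role in male meiosis, had 1993, 1715, 1985 and 1738 normalized reads in H1, H2, L1 and L2, and its X-linked parent Rpl10 had 16019, 17406, 17245 and 13117. Rpl39l, also best known from testis, had 856, 630, 711 and 596, and its parent Rpl39 had 1893, 1889, 1633 and 1744. The groups overlapped for both copies and for Rpl10. Rpl39l was also the tested gene whose 2 Lncenc1-high libraries differed most, with H1 above H2. Rpl6l had 222, 287, 224 and 164 normalized reads. Its sequence is 98.7% identical to the coding bases of Rpl6, so that reads of the parent, which had 27549, 30103, 27120 and 19994, may have been counted there. Rpl3l, the striated muscle form of Rpl3, had no adjusted p in the authors' deposited table and is therefore not among the tested genes. It had 7.70 normalized reads in H1, 1.25 in H2, 2.46 in L1 and 0 in L2, from 15, 1, 2 and 0 reads. A level of 3 reads would be 1.54, 3.76, 3.70 and 3.71 normalized reads, so it was above that floor in H1 and below it in the other 3 libraries.

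Levels of different genes were compared per kilobase of the principal annotated transcript. Over the 76 core genes the mean over all 4 libraries had a median of 13869 normalized reads per kilobase, with the middle part of the genes between 7506 and 19296 (quartiles). Rpl41, the smallest ribosomal protein, stood highest with 88885 normalized reads per kilobase, followed by Rpl13a with 51312 and Rps6 with 50060. Undivided by length, Rpl41 had 55491 normalized reads in H1, 57926 in H2, 55551 in L1 and 37956 in L2, and Rpl13a, known for silencing inflammatory transcripts when released, had 57343, 63580, 55691 and 38280. L2 was far below the other 3 libraries for both. The lowest core gene was Rpl24 with 29.8, and the next lowest was Rpl29 with 720, for which H1, H2, L1 and L2 had 605, 546, 598 and 362 normalized reads. In single libraries Rpl24 had 20.02, 20.07, 19.72 and 21.01 normalized reads in H1, H2, L1 and L2, and its log2 fold change in the authors' deposited table was -0.023 ± 0.936 (SE; DESeq2 adjusted p = 0.999). The annotation tags Rpl24 as overlapping another locus, as it does Rps10, Rpl13a, Rpl19 and Rpl36al, and the sources used here do not give how the authors counted such reads. The level of Rpl24 is therefore uncertain.

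Near-identical processed pseudogenes make the level of some core genes uncertain as well. Rps2 had a mean of 8231 normalized reads, while its processed pseudogene Rps2-ps6, 99.2% identical over 855 bases, had 34155. Rps2 had 8710, 9167, 8184 and 6865 normalized reads in H1, H2, L1 and L2, and Rps2-ps6 had 35651, 43613, 30414 and 26942. The order of the libraries was the same in both, and the sources used here do not say how reads were divided between the copies. Rps2 and its pseudogene were singled out after their values were seen.

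Of the ribosomal proteins whose symbols fall outside the rule, 5 are given here. None was called by the authors' DESeq2 test or by limma voom, and none had an unadjusted p under 0.05. Rps3a1 had 23590, 26730, 22987 and 20015 normalized reads in H1, H2, L1 and L2. Fau, a fusion of a ubiquitin-like protein and a small subunit protein, had 4611, 4931, 4279 and 3792. Rack1, a scaffold on the small subunit, had 30785, 34219, 29159 and 25958. For these 3 genes both Lncenc1-high libraries were above both Lncenc1-low libraries and L2 was the lowest. The log2 fold change, from the authors' deposited table, was 0.23 for Rps3a1, 0.24 for Fau and 0.24 for Rack1, with DESeq2 adjusted p of 0.854 to 0.892. The other 2, singled out after their values were seen, went in opposite directions. Rpl22l1, a relative of Rpl22, had 912, 1189, 953 and 535 normalized reads in H1, H2, L1 and L2, and Rpl7l1, a relative of Rpl7, had 4026, 4032, 4980 and 4628.

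Translation genes outside the ribosome with known 5′ TOP transcripts form a related list. Of 20 tested, none was called by the authors' DESeq2 test or by limma voom. An unadjusted p under 0.05 was found for 2, both higher in the Lncenc1-high group, against 3.54% of all tested genes in that direction. A fold change above 0 was found for 17, against 49.4%, and the median log2 fold change was 0.21. L2 was the lowest library for 16 of the 19 with counts, against 31.2% of all tested genes. The median log2 level minus the mean of the 4 libraries was -0.28 in L2. L1 was above both Lncenc1-high libraries for 10 of these 19. The same order was found for 5298 of 14066 tested genes, and for 1423 of the 3421 averaging 1000 normalized reads or more. Over the 19 genes the median log2 fold change was -0.024 without L2, the reverse sign, and 0.37 without L1. The 2 with the smallest p were Eif4a2, an RNA helicase of translation initiation, and Eef1b2, an exchange factor of elongation. Eif4a2 had 12600, 15562, 11397 and 9919 normalized reads in H1, H2, L1 and L2, and Eef1b2 had 8628, 9774, 7854 and 6183. Neither overlapped between the groups, and in the authors' deposited table the log2 fold changes were 0.40 ± 0.19 and 0.39 ± 0.20 (SE; DESeq2 adjusted p = 0.506 and 0.557).

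Ribosome biogenesis factors process ribosomal RNA and assemble the subunits. Of 41 tested none was called by the authors' DESeq2 test or by limma voom. An unadjusted p under 0.05 was found for 2, both lower in the Lncenc1-high group. In that direction 743 of all 14070 tested genes had one. The fold change was above 0 for 13, against 49.4% of all tested genes, and below 0 for 28. The median log2 fold change was -0.047. It was -0.15 without L2, -0.0039 without L1, -0.058 without H1 and -0.11 without H2. The 2 with the smallest p were Bop1, of the large subunit processing complex PeBoW, and Nhp2, of the box H/ACA particles. Bop1 had 1411, 1223, 2131 and 1645 normalized reads in H1, H2, L1 and L2, and Nhp2 had 2822, 3094, 4496 and 3364. Both were lower in both Lncenc1-high libraries, and the authors' deposited table gave them log2 fold changes of -0.52 ± 0.22 and -0.41 ± 0.21 (SE; DESeq2 adjusted p = 0.367 and 0.562).

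Small nucleolar RNA host genes, whose introns carry the guide RNAs of ribosomal RNA modification and whose transcripts often start with a TOP tract, form the last list. Of 9 tested 1 was called higher in the Lncenc1-high group, against 0.505% of all tested genes, and 5 had an unadjusted p under 0.05 in that direction, against 3.54%. All 9 had a fold change above 0, against 49.4% of all tested genes, and the median log2 fold change was 0.70. Both Lncenc1-high libraries were above both Lncenc1-low libraries for 7 of the 9, against 20.6%, and the median log2 fold change without L2 was 0.52. Snhg3, the called gene, had 6707 normalized reads in H1, 7788 in H2, 3287 in L1 and 4765 in L2, so L1 and not L2 was its lowest library. Its log2 fold change in the authors' deposited table was 0.85 ± 0.22 (SE), with a DESeq2 adjusted p of 0.014. The call was lost without H1, H2 or L1, with adjusted p of 0.076, 0.318 and 0.359, and with limma voom (0.242), while the log2 fold change was 0.95, 0.74, 0.60 and 0.87 in these fits. Without L2 the call held, with a log2 fold change of 1.14 and an adjusted p of 0.012. The annotation tags Snhg3 as overlapping another locus. L2 was the lowest library for the other 8 host genes, and L1 was low as well: over the 9 genes the median log2 ratio to the mean of the Lncenc1-high libraries was -0.52 in L1 and -0.76 in L2.

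Short and abundant transcripts were compared as well. The 156 other tested genes averaging 1000 normalized reads or more with a transcript under 1 kb had a median log2 fold change of -0.019, and the 3348 other genes of that abundance, of any length, had one of 0.012. On the log2 scale relative to the mean of the 4 libraries, the median level in L2 was -0.12 for the 156 short genes, -0.04 for those of any length and -0.30 for the core ribosomal protein genes. Their median log2 ratios of L2 over L1 were -0.23, -0.06 and -0.32, and L2 was the lowest library for 48.7%, 38.4% and 96.1% of them. The 156 short genes thus had part of the low level in L2, but they include related genes such as Rps3a1, Fau, Rps2-ps6 and Snhg3. The part of such genes in these medians was not tested, nor was the part of transcript length in the values of the ribosomal protein genes. Size factors computed without the ribosomal protein genes left the median of the 81 at 0.26, and library totals gave 0.24, with the median of all genes moving by -0.030.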

How the data were processed

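Per the labels' protocols, the 4 libraries were strand-specific and made from total RNA after ribosomal RNA depletion. TopHat2, HTSeq and DESeq2 (1.8.2) are tools named in the submitters' processing notes, with the build mm9, and the sources used here give neither the annotation release nor the strand setting. Per the file headers, the deposited table gives the mean normalized read count over all libraries, a signal, with log2 fold changes and standard errors (log2), the Wald statistic (a score), and the p-value and adjusted p-value, all computed by the authors. An adjusted p was deposited for 14070 of 19840 genes.

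The authors' test at an adjusted p under 0.05 is the main result: the edgeR test planned for a count table was not used here, as the table holds another unit. Since each deposited mean adds up 4 whole counts divided by size factors, all combinations that give a mean were listed, and the one whose refitted log2 fold change met the deposited one was taken. This gave counts for 19836 genes (99.98%), all 82 members among them. The 4 not recovered (Ptma, mt-Co1, Eef1a1 and Gm26917) hold 7.27% of the summed means. The size factors of H1, H2, L1 and L2 were 1.95, 0.797, 0.811 and 0.809. Recovered counts served for values per library and for alternatives, which were a Wald refit (negative binomial) with dispersions taken from the deposited errors, and limma voom (limma 3.58.1). Both were tested on simulated data. Lengths, gene types and overlap tags are from GENCODE M21, of another build than the authors', symbols matched 19707 identifiers, and promoters are from RefSeq.

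The members and gene lists were chosen with earlier results of these data known. Named are members with an unadjusted p under 0.05, the 5 highest and 5 lowest fold changes, the P stalk, copies with their parent genes, Rpl5, Rpl11, Rpl22, Rpl23, Rpl26, Rps6, Rps19 and Rpsa, the 3 highest and lowest levels per length, the 3 with the largest difference between libraries of a group, untested members, and of each related list the called genes or else the 2 with the smallest p, with Fau, Rack1 and Rps3a1. A further gene of that list is not reported here.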

Additional observations from a re-analysis of the deposited data

How the results depend on the processing

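The count of ribosomal protein genes called went from 1 to 0 with limma voom and was 0 in every fit that left out 1 library (range 0 to 0). It stayed 1 with library totals, with size factors computed without these genes, with no filter on low values, with only genes averaging 50 normalized reads or more and with the refit on all 4 libraries, an alternative added after seeing the data. The median log2 fold change of the ribosomal protein genes ranged from 0.083 (without L2) to 0.43 (without L1) over those fits, and from 0.24 to 0.28 over the other alternatives. The number of small nucleolar RNA host genes called went from 1 to 0 with limma voom and ranged from 0 to 1 with 1 library left out. In the fits without 1 library, the group's single remaining library was taken to vary like the others, the dispersions stay those of all 4 libraries, and fewer libraries are tested; limma voom called 8 genes in all, against 215 in the authors' deposited table. None of the 9 genes picked for their small p, which were Snhg3 and 8 ribosomal protein genes, changed direction under any alternative. Other genes did: of the 81 ribosomal protein genes, 5 had a fold change below 0 in the main result and 18 without L2. Leaving the recovered mitochondrially encoded genes out of the total moved each library's share of reads by less than the spread between libraries. The counts of mt-Co1, with a mean of 209023 normalized reads, were not recovered and were in neither total, so their effect was not tested. No paired analysis was possible because the deposited table has no column per library and the recovered libraries carry no replicate number. Groups of 2 libraries limit the precision. The core genes other than Rpl24 have means of at least 528 normalized reads. Rpl29, which has that lowest mean, had a standard error of 0.29 against a core median of 0.20. The part of depth in the precision was not tested.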

Other observations

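Ribosomal protein symbols that contain -ps, which the symbol rule leaves out, had 14 entries in the table, of which 11 were tested. The annotation lists Rpl10-ps3, Rpl9-ps1, Rps12-ps3 and Rpl9-ps6 as protein coding and the others as processed pseudogenes. None was called by the authors' DESeq2 test, and 7 of the 11 had a fold change above 0, against 49.4% of all tested genes. An unadjusted p under 0.05 was found for 2, both higher in the Lncenc1-high group, against 3.54% of all tested genes in that direction. Apart from Rps2-ps6, which the report describes beside Rps2, the gene with an unadjusted p under 0.05 was Rpl27-ps3. It had 729 normalized reads in H1, 739 in H2, 529 in L1 and 507 in L2, with a log2 fold change of 0.50 ± 0.24 (SE; DESeq2 adjusted p = 0.491, the authors' deposited table). These entries can share reads with their parent genes.

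The 11 pluripotent stem cell markers had log2 fold changes above 0 in all 11 cases, against 49.4% of all tested genes. Their median was 0.31, and none was called by the authors' DESeq2 test. An unadjusted p under 0.05 was found for 3, all higher in the Lncenc1-high group, against 3.54% of all tested genes in that direction. Of these markers 9 had both Lncenc1-high libraries above both Lncenc1-low libraries, and L2 was the lowest library for 7, against 24.1% and 39.6% of all tested genes averaging 1000 normalized reads or more. Among them Nanog had 10902, 9813, 8955 and 6664 normalized reads in H1, H2, L1 and L2, and Pou5f1 had 12217, 12443, 10215 and 11533. These 2 were chosen after their values were seen.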
